A study of Arabidopsis thaliana with 7 samples.

Results

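The 13 probe sets described here had high signals in microspores and bicellular pollen, low signals in tricellular pollen and a moderate signal again in mature pollen. They were found among 22746 probe sets of the ATH1 array and were chosen by the signals themselves. The rule took probe sets with all 4 early signals at 200 or more, both tricellular signals at most 0.25 times the lowest early signal, and a mature pollen signal of at least 60 and at least 3 times the higher tricellular signal. The drop into tricellular pollen and the higher value at maturity were therefore fixed by the choice. They are given as a description without a test. The rule set no limit on the difference between microspores and bicellular pollen, and this difference was tested. The signals of both stages did enter the rule, so this test is not independent of the choice.

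The arrays were hybridized with total RNA of isolated spores of Arabidopsis thaliana ecotype Ler-0, with no genetic modification, from pooled plants grown at the same temperature and day length. There were 2 arrays each of microspores with 1 nucleus (UNM), of pollen with 2 cells (bicellular, BCP) and of pollen with 3 cells (tricellular, TCP), and 1 array of mature pollen grains (MPG). The replicates of the first 3 stages came from independently grown plants, while every MPG value here rests on a single array and has no replicate check. The study itself compared 2 biological replicates of each stage, mature pollen included, but only 1 MPG array was available here. The immature stages were separated on density gradients from ground inflorescences, and mature pollen was collected by another procedure, so stage and isolation cannot be told apart at maturity. The study's microscopy found spores of other stages in the UNM, BCP and TCP isolates, least in UNM and most in BCP. Mature pollen held some aborted grains.

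The male gametophyte starts as a haploid microspore. An asymmetric division gives a large vegetative cell and a small generative cell, and division of the generative cell gives the sperm cells of tricellular pollen. The vegetative cell stores RNA and protein during maturation and later forms the pollen tube. An array of the whole grain reads the RNA of both cell types together, and fewer cells of a type cannot be told apart from less RNA per cell.

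The signal is the deposited intensity of a probe set on a linear scale, with every array scaled to the same trimmed mean. Between 8986 and 11411 probe sets per array reached a signal of 40, with 8986 and 9497 on the TCP arrays and 9713 on the MPG array. A gene is called measured here if the array annotation paired a probe set with it alone. Such a pairing was available for 13436 of the 22746 probe sets, so genes not measured may still have probes on the array. Of 5 late pollen markers the 2 measured ones, the receptor kinase genes ANX1 and ANX2, summed to at most 45.1 in UNM and BCP, 1908 and 1927 in TCP and 4802 in MPG. HTR10, a histone gene of sperm cells and the only measured one of 4 sperm markers, stood at 104 to 354 in UNM and BCP and at 2354 to 2876 in TCP and MPG. None of 7 green tissue markers was measured. The 3 measured tapetum markers of 10 summed to 27.4 to 83.5 in UNM and BCP, 45.0 and 38.6 in TCP and 18.4 in MPG, with none at 40 in TCP or MPG.

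The members were the end of a sequence of selection steps. Of the 22746 probe sets, 2666 had all 4 early signals at 200 or more, and 791 of these were low on both TCP arrays. The MPG signal was at least 60 in 551 of the 791, and 13 of the 551 were also 3 times above the higher TCP signal. The other transcripts lost by the tricellular stage mostly stayed near their TCP level. Over all 791, the MPG signal was a median of 1.23 times the higher TCP signal, with 5% of the values under 0.562 and 5% over 2.64. It was above both TCP arrays in 537 and below both in 136.

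**Figure D1:**
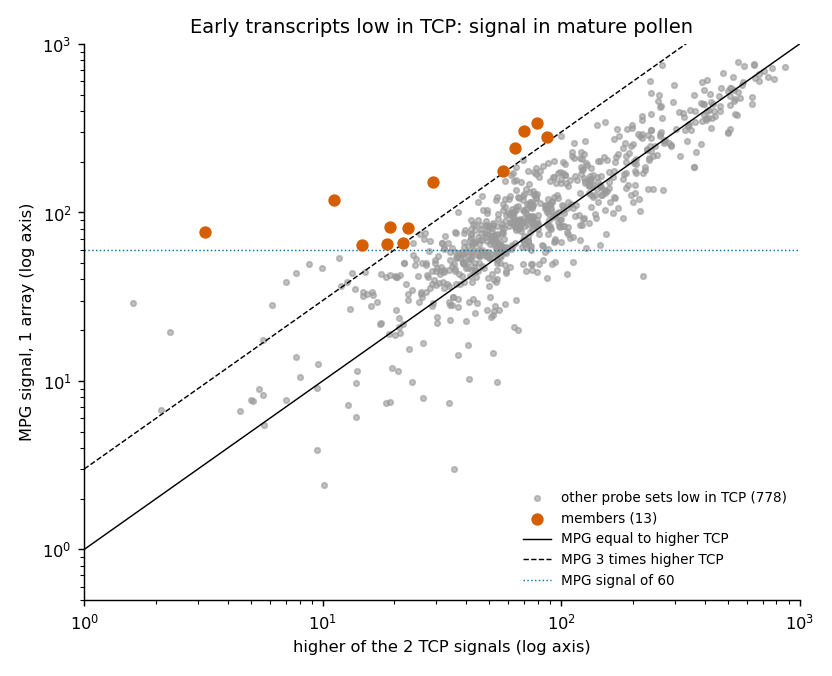
MPG signal on its single array (vertical, log axis) against the higher of the 2 TCP signals (horizontal, log axis) for the 791 probe sets that were high in UNM and BCP and low in TCP. Grey points are the 778 probe sets that are not members, large orange points the 13 members, and the lines mark equality, the 3-fold limit and the MPG limit of 60. The members lie along the upper left edge of the cloud, whose median ratio was 1.23.

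The MPG step picked a small share of probe sets in each class it could be applied to. It was met by 13 of the 791 fallen probe sets (1.64%). Among all 17075 probe sets whose TCP signals were both at or under 87.4, the highest TCP signal of a member, it was met by 87 (0.510%). Among the 9568 of these with all 4 early signals under 40 it was met by 42 (0.439%). These shares describe how often the limits were reached and carry no test, because the rule used the same signals.

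A gene was paired with 9 of the 13 probe sets in the annotation of the array, and the other 4 are given by probe set. Of the 9 genes, 3 lie on chromosome 3, 2 on chromosome 4 and 4 on chromosome 5. None of these 9 genes had a further probe set paired with it alone, so none was checked by other probes. The other 4 probe sets could not be looked up in this way. PES and CURT1D are the members with a gene name in the tables used here, and the other 7 genes are known here by locus only.

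PES (AT5G14520) encodes the Arabidopsis Pescadillo protein, a nucleolar factor needed for processing of ribosomal RNA and assembly of the large ribosomal subunit. Its signals were 704 and 754 in UNM, 525 and 604 in BCP, 22.7 and 7.90 in TCP and 81.4 in MPG. As fixed by the rule, both TCP arrays lay below the 4 early arrays and MPG lay above both TCP arrays. The MPG signal was below the 4 early arrays, at 15.5% of the lowest early signal. The TCP replicates differed 2.87-fold, so the ratio of MPG to TCP was 3.59 against the higher TCP array and would be larger against the lower one.

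Making a ribosome starts with transcription of ribosomal DNA by RNA polymerase I, followed by trimming and chemical modification of the precursor RNA and its folding with the help of RNA helicases. Some other genes of rRNA synthesis and processing were looked up because PES was a member and were chosen after the values had been seen. Whether each of them acts on the transcripts of RNA polymerase I was not checked. They were NRPA1 and NRPA2 (the large subunits of RNA polymerase I), DIM1A and DIM1B (dimethylases of rRNA), RRP41 (a core subunit of the exosome, which trims RNA from the 3′ end) and the DEAD-box helicases PRH75 and RH57. All 7 fell between BCP and TCP in limma, with adjusted p from 6.5e-05 to 0.0053, where 37.5% of all 14364 probe sets tested were called lower. Without 1 array, or under another scaling or floor, 6 or 7 of the 7 were called. Of 17 gene lists made from gene names, 12 had a matched gene. The other 5, both lists of ribosomal proteins among them, matched none. Only 1 list held a member, the ribosome biogenesis list, in which PES was the only gene matched by name. Members known by locus only carried no name to match, so the lists do not show what these members are. All 3 measured genes of the RNA helicase list, PRH75 and RH57 among them, fell between BCP and TCP (median log2 difference −2.19, against −0.33 over all probe sets tested). This median is the value of RH57, whose TCP signals were raised to the floor of 20, and the RH57 difference was −1.19 with a floor of 40 and −3.19 with a floor of 10. Between TCP and MPG only PRH75 among the 7 was called higher, against 5.02% of all probe sets tested.

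PRH75 was the gene closest to the members among these 7. Its signals were 385 and 356 in UNM, 253 and 239 in BCP, 13.3 and 3.60 in TCP and 43.7 in MPG. The MPG signal was 3.29 times the higher TCP signal and missed only the limit of 60. Its rise had an adjusted p of 0.025 in limma (log2 difference 1.14, a lower bound because both TCP signals were raised to 20), ranging from 0.0067 to 0.37 over the alternatives, and the call was lost without either UNM array, without either TCP array and with a floor of 40. NRPA2 stood at 46.5 and 49.0 in TCP and 79.2 in MPG, a log2 difference of 0.73 (adjusted p = 0.071 in limma). It was called higher with a floor of 40, with a minimum signal of 80 and with no filter on dim probe sets, with adjusted p of 0.013 to 0.047. RRP41 stood at 61.9 and 74.7 in TCP and 63.2 in MPG, and RH57 at 2.2, 2.3 and 2.4 on the same 3 arrays. NRPA1 and DIM1A were lower in MPG than on both TCP arrays, with 3.80 against 34 and 40.0 for NRPA1 and 31.0 against 55.7 and 54.6 for DIM1A. Neither difference passed the test (adjusted p = 0.17 and 0.095 in limma), although NRPA1 was called lower with a floor of 10 (adjusted p = 0.033) and DIM1A with the replicate number as a block (adjusted p = 0.047). The signals of different probe sets are not levels on a common scale, and only their course over the stages can be set side by side.

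CURT1D (AT4G38100) belongs to the CURVATURE THYLAKOID 1 family, small membrane proteins that bend thylakoid membranes at the margins of grana stacks. Its signals were 658 and 530.0 in UNM, 445 and 363 in BCP, 18.6 and 9.90 in TCP and 64.6 in MPG. MPG was 3.47 times the higher TCP signal and 17.8% of the lowest early signal. Both other family members measured had lower signals in MPG than in TCP. CURT1A had 355, 416, 322 and 367 on the early arrays, 103 and 112 in TCP and 58.6 in MPG. It fell between BCP and TCP by 1.68 on the log2 scale (adjusted p = 0.00069 in limma), and its difference of −0.87 between TCP and MPG had an adjusted p of 0.062. CURT1C had early signals of 51.8 to 66.0, TCP signals of 37.7 and 43.1 and an MPG signal of 19.8, with adjusted p of 0.088 and 0.057 for these steps in limma. Both steps were called with the replicate number as a block (adjusted p = 0.033 and 0.039), and the difference between TCP and MPG also after quantile normalization (adjusted p = 0.029). The CURT1A difference between TCP and MPG was called with a floor of 40 and with a minimum signal of 80 (adjusted p = 0.036 and 0.037). The TCP minimum of CURT1D was fixed by the rule, while CURT1A and CURT1C had their lowest signals on the single MPG array. The difference between the family members in their course was not tested.

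**Figure D2:**
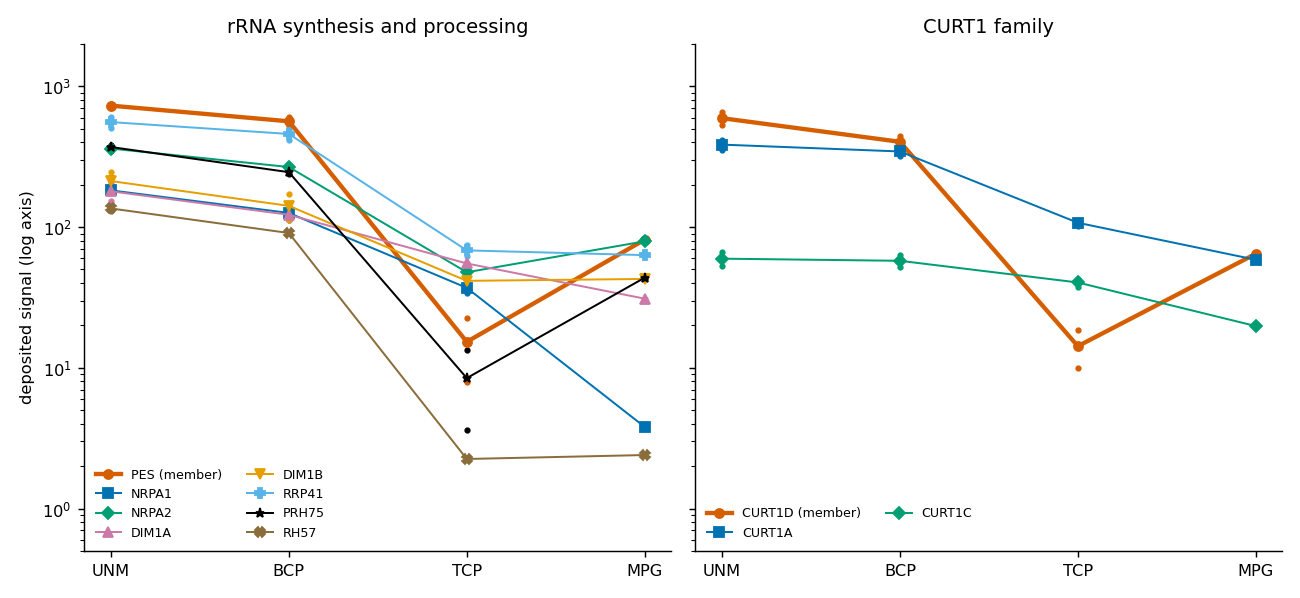
Deposited signals (log axis) over the 4 stages for PES with 7 other genes of rRNA synthesis and processing (left) and for CURT1D with its family members CURT1A and CURT1C (right). Lines join stage means, large symbols are stage means and small dots are single arrays; thick orange lines are the members. Heights of different probe sets cannot be compared, and MPG reached 1.62 times the higher TCP signal or more for PES, PRH75, NRPA2 and CURT1D.

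A pair of loci stood apart by how much of the early signal was present in mature pollen. AT5G05990 had signals of 491 and 640 in UNM, 362 and 352 in BCP, 20.3 and 70.1 in TCP and 304 in MPG. Its MPG signal was 86.3% of the lowest early signal, and its TCP replicates were the farthest apart of all members, at 3.45-fold. AT3G12370 had 563 and 538 in UNM, 492 and 463 in BCP, 64.3 and 87.4 in TCP and 281 in MPG, which was 60.7% of the lowest early signal. These were also the members with the highest TCP share, 19.9% and 18.9% of the lowest early signal, and so lay closest to the TCP limit of the rule.

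The deepest TCP minimum was that of AT5G02140. Its signals were 835 and 785 in UNM, 705 and 816 in BCP, 1.90 and 3.20 in TCP and 76.8 in MPG. The ratio of MPG to the higher TCP signal, 24.0, was the highest of the 791 fallen probe sets. It rests on TCP signals far under 20, where small differences in signal make large ratios. With TCP signals raised to a floor of 20 the ratio was 3.84.

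AT5G39850 had 1315 and 1167 in UNM, 889 and 656 in BCP, 11.2 and 7.40 in TCP and 119 in MPG. AT3G58290 had 1726 and 1646 in UNM, 1060 and 1292 in BCP, 26.5 and 29.1 in TCP and 151 in MPG. The TCP replicates differed 1.51-fold in AT5G39850 and 1.1-fold in AT3G58290, and the MPG signal was 18.2% and 14.3% of the lowest early signal. They had the highest ratios of MPG to TCP once the floor of 20 was set, 5.96 and 5.19.

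Among the dimmer loci, AT3G15357 had 610 and 439 in UNM, 419 and 294 in BCP, 19.2 and 18.7 in TCP and 81.9 in MPG. AT4G24950 had 369 and 489 in UNM, 266 and 281 in BCP, 14.6 and 6.70 in TCP and 63.7 in MPG, the lowest MPG signal of a member. Their MPG signals were 27.8% and 23.9% of the lowest early signal, and the TCP replicates of AT4G24950 differed 2.18-fold.

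The probe sets without a gene name include the brightest early transcripts. Probe set 247759_at had 2941 and 2667 in UNM, 2094 and 1773 in BCP, 58.4 and 79.3 in TCP and 339 in MPG, the highest MPG signal of a member. Probe set 254080_at had 2120.1 and 2257 in UNM, 1523 and 1533 in BCP, 63.5 and 64.3 in TCP and 241 in MPG. Both kept less than 20% of the lowest early signal in MPG, 19.1% and 15.8%. Probe set 253480_at had 1438 and 1963 in UNM, 935 and 1287 in BCP, 57.1 and 42.3 in TCP and 177 in MPG. Probe set 250100_at had 367 and 400.0 in UNM, 260.5 and 310 in BCP, 18.0 and 21.8 in TCP and 65.7 in MPG. They lay closest to the 3-fold limit of the rule, at 3.10 and 3.01 times the higher TCP signal.

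**Figure D3:**
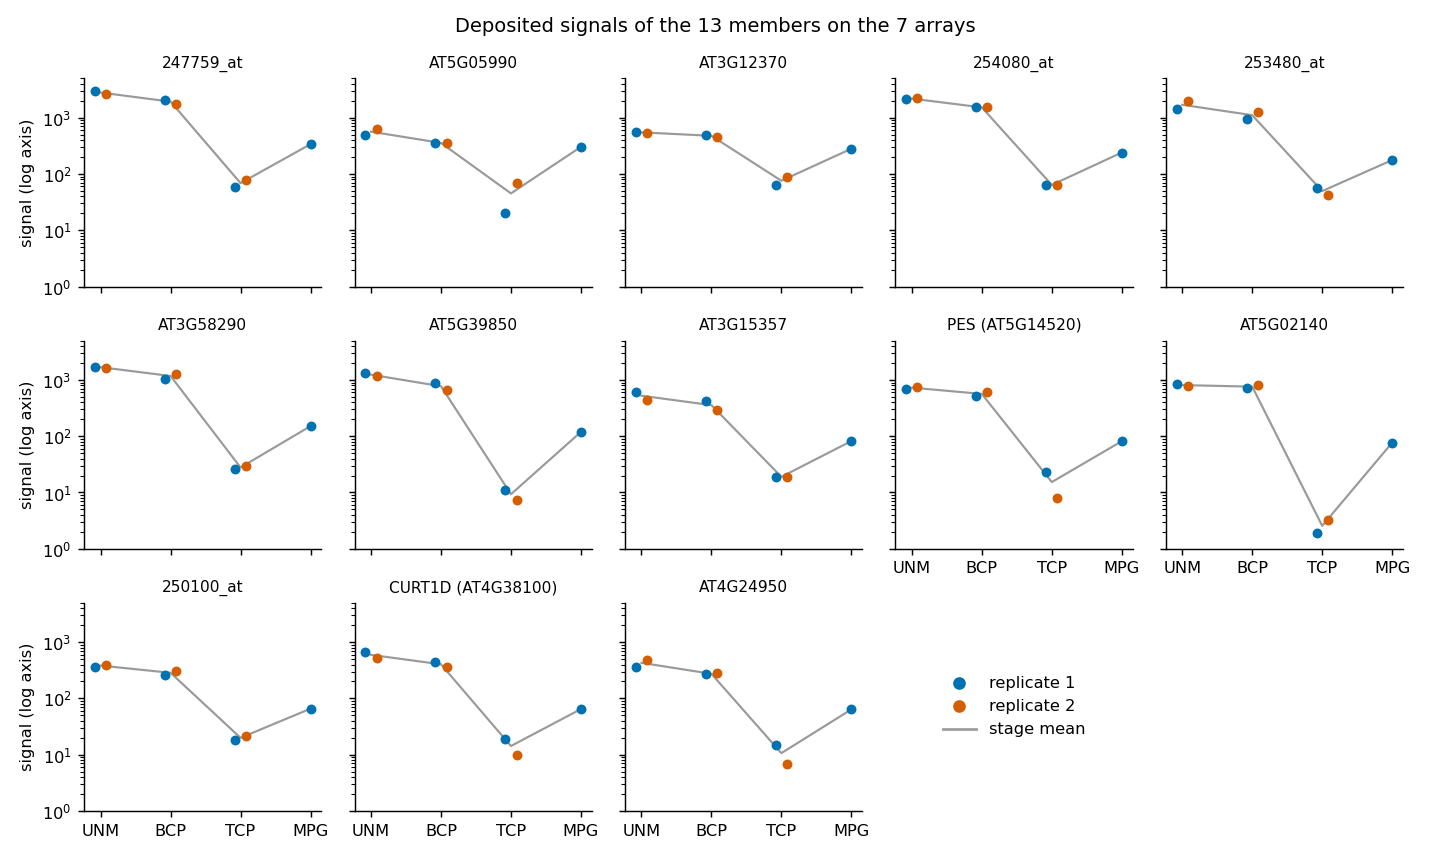
Deposited signal of each of the 13 members on the 7 arrays (log axis), ordered by MPG signal. Blue and orange points are replicates 1 and 2 and grey lines join the stage means, with MPG a single array. In every panel the early points lie above the MPG point and, as fixed by the rule, the MPG point lies above both TCP points.

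Read as ranks within an array, the median of the members lay near the top in UNM and BCP, below the middle in TCP and in the upper part in MPG. The members' median percentile among the 22746 probe sets was 96.0 and 96.4 in UNM, 94.3 and 95.5 in BCP, 40.9 and 41.2 in TCP and 82.4 in MPG. In TCP the percentiles of single members ranged from 7.67 to 71.7 on replicate 1 and from 12.5 to 76.5 on replicate 2. In TCP, 8 of the 13 were below a signal of 40 on both arrays. The higher TCP signal was between 0.454% and 19.9% of the lowest early signal, with a median of 5.13%.

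None of the members regained its early signal. The MPG signal was below every UNM and BCP array in all 13, at 10.9% to 86.3% of the lowest early signal (median 18.9%). It was under 25% in 9 members and over 50% in 2, AT5G05990 and AT3G12370. Over all 791 fallen probe sets the median was 16.9%, with 5% of them under 7.08% and 5% over 30.9%. Over all 2666 probe sets with high early signals it was 33.5%. The members' median was thus close to that of the fallen probe sets as a whole, and what set them apart by the rule was their lower TCP signal relative to MPG.

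**Figure D4:**
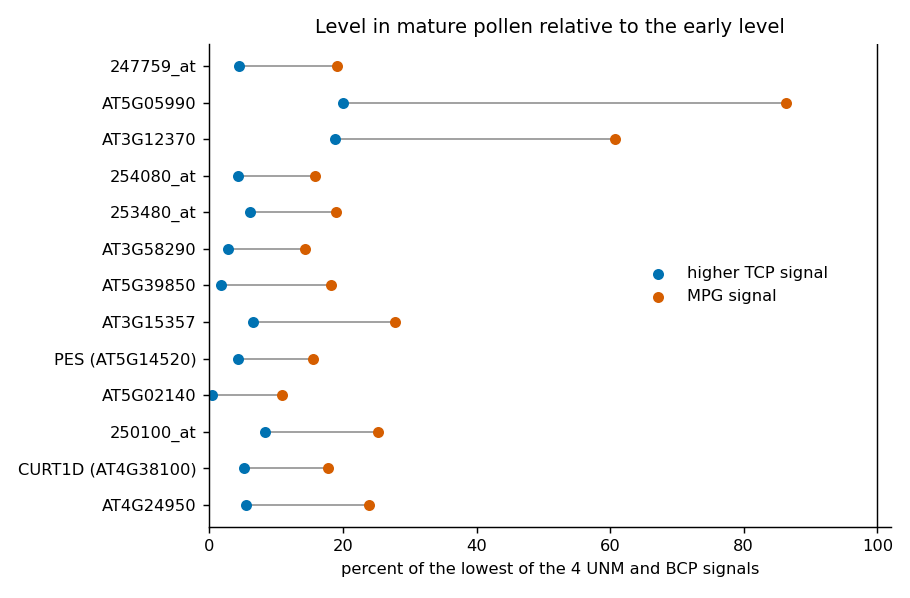
Higher TCP signal (blue) and MPG signal (orange) of each member as a percent of its lowest UNM or BCP signal (horizontal axis, the black line marks 100%). MPG lies between 10.9% and 86.3%, and AT5G05990 and AT3G12370 are the members above 50%.

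Between UNM and BCP, the step that the rule did not use, the signals of the members were lower in the later stage. The log2 difference (BCP minus UNM) was negative in all 13, from −0.09 in AT5G02140 to −0.70 in AT5G39850, with a median of −0.54. No member passed the test on its own. In limma, 0 of 13 were called at an adjusted p of 0.05, the lowest adjusted p was 0.19 (AT5G39850, log2 difference −0.70, SE 0.21), and 5 had an unadjusted p under 0.05. In either direction, 2274 of all 14364 probe sets tested had an unadjusted p under 0.05 in limma. The same held for 118 of the 778 fallen probe sets that were not members. Of all 14364 probe sets tested, 0.494% were called lower and 2.03% higher in BCP.

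The 2 UNM arrays were both above the 2 BCP arrays in 12 of the 13 members, AT5G02140 being the exception. The same held for 24.0% of all probe sets tested, for 31.1% of the 2666 with high early signals and for 64.1% of the 791 fallen probe sets. The median log2 difference was −0.05 over all probe sets tested, −0.08 over those with high early signals, and −0.30 over the 778 fallen probe sets that were not members, of which 708 had a negative difference. A lower BCP signal was therefore also the usual course of transcripts that were low in TCP. Whether the members differ in this from the other fallen probe sets was not tested.

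**Figure D5:**
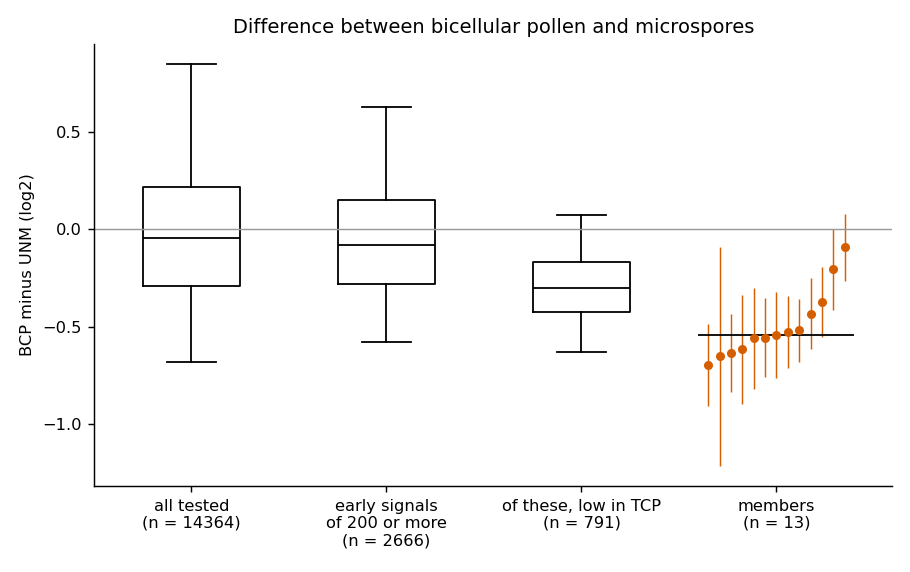
Difference between BCP and UNM (log2, vertical axis) for all probe sets tested, those with high early signals, those of them low in TCP, and the 13 members. Boxes give the median and quartiles with whiskers at 5% and 95%, and orange points are members with SE bars and a line at their median of −0.54. The fallen probe sets lie mostly below 0, and all members do.

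CURT1D lay near the median of the members with −0.56 (SE 0.20, adjusted p = 0.27 in limma), and PES had a smaller difference of −0.37 (SE 0.18, adjusted p = 0.40). AT5G05990 had the widest error (−0.65, SE 0.56), and AT3G12370 had a small difference (−0.21, SE 0.21, adjusted p = 0.70). Thus AT3G12370 and AT5G02140 were those whose early signals differed least between both stages.

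The limits of the rule separated the members from transcripts with similar courses. The MPG signals just inside were 63.7 (AT4G24950), 64.6 (CURT1D) and 65.7 (250100_at), and those just outside were 53.5 (AT4G28440), 49.4 (258884_at) and 46.9 (AT1G80750). For the ratio of MPG to TCP, AT3G12370 lay inside at 3.22, and AT4G12600, AT1G32580 and 263371_at lay outside at 2.96, 2.94 and 2.93. For the TCP share, AT1G69840 was just outside with 0.266 of its lowest early signal. It had 557, 366, 364 and 250.0 on the early arrays, 57.6 and 66.5 in TCP and 549 in MPG, an MPG signal above its BCP arrays that no member reached.

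With 2 genes taken on each side, the members with a locus had 36 neighbouring genes, of which 16 were measured. Of these 16, only AT3G12390, 2 places from AT3G12370, reached 200 on all early arrays. It had 1261 and 1249 in UNM, 1045 and 1015 in BCP, 48.2 and 32.0 in TCP and 58.6 in MPG, so it was also low in TCP but not 3 times higher in MPG. SAE1A, a subunit gene of the SUMO-activating enzyme next to AT4G24950, had 334, 304, 257 and 185 on the early arrays, 4.2 and 4.4 in TCP and 26.1 in MPG. None of the 16 measured neighbours met the rule. Neighbours that were not measured, and those of members without a locus, were not looked at.

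The MPG array differed from the others in the scanner's own record. Its average background was 75.8, against 56.1 to 64.8 on the other 6 arrays, and its average noise was 3.31, against 2.36 to 3.20. The lower quartile of its signals, 8.5, was close to those of the TCP arrays, 8.03 and 8.20. The 3′ to 5′ log2 ratio of the GAPDH control, a sign of RNA quality, was 0.88, 0.63 and 1.06 on the arrays of replicate 1 in UNM, BCP and TCP, 2.89, 2.76 and 3.19 on those of replicate 2, and 1.21 in MPG. The ubiquitin control also had the lower ratios on replicate 1, 1.96 to 2.36 against 2.96 to 3.03, and 1.91 in MPG. The actin control differed little between replicates in UNM (1.789 and 1.787) and BCP (1.622 and 1.605). Its ratio was −2.25 and −1.85 in TCP and −2.19 in MPG. Of the meiocyte markers the 2 measured ones summed to 60.7 in MPG, 38.1 and 35.7 in TCP and 70.9 to 91.3 in UNM and BCP, and SDS stood at 43.2 in MPG against 27.1 and 22.2 in TCP. The part of these values in the MPG signals of the members was not tested.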

How the data were processed

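Total RNA of isolated spores was labelled and hybridized to Affymetrix ATH1 arrays by the authors. The deposited file gives a linear intensity for each probe set on each array and holds no detection calls. All 22810 deposited values of an array had a 2% trimmed mean of 100, so the authors had scaled the arrays before deposit. Which software made them is not given in the sources used. The members and gene lists were chosen with earlier results of these data known.

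Members were counted on the deposited signals. For tests, the 64 control probe sets were set aside, the arrays were rescaled to a trimmed mean of 100 (factors of 1.0057 to 1.0084), signals under 20 were raised to 20, and the 14364 probe sets that reached 40 on any array were tested on log2 values in limma 3.58.1 (R 4.3.3). All 7 arrays entered 1 fit with 3 residual and 2.77 prior degrees of freedom, and p-values were Benjamini-Hochberg adjusted over all probe sets at 0.05. P-values set a stage difference against the spread between the replicate arrays of UNM, BCP and TCP. MPG, with its lone array, added nothing to this spread and was taken to vary like the other stages. The number of arrays limits the precision. The fit was tested on simulated data for the difference between UNM and BCP only, with noise independent between arrays and no floor applied. That test did not cover the difference between TCP and MPG or signals raised to the floor. Counts and ratios were made in Python 3.11.15 with numpy 2.4.6 and pandas 2.3.3.

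Genes were named through the array annotation and the TAIR10.1 gene table, which gave 13436 probe sets 1 gene with a locus. All members with 1 gene were named, with signals of every member and of the nearest probe sets outside each limit. Floor, filter, scaling, replicate block, limits of the rule and single arrays were varied.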

Additional observations from a re-analysis of the deposited data

How the results depend on the processing

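The number of members followed the limits of the rule. It was 66 with MPG at least 2 times the higher TCP signal, 3 with at least 5 times, 6 with MPG at least 120 and 11 under a stricter TCP limit. Leaving out 1 early or TCP array gave 13 to 33, with 33 without TCP replicate 1 and 22 without TCP replicate 2. All 13 members were among them each time, but this was fixed in advance. Leaving out such an array can only loosen the rule, so no member can be lost. After quantile normalization 16 probe sets met the rule, 11 of them members. The median MPG signal of the members, 18.9% of the lowest early signal, was 16.2% to 18.9% without 1 early array and 20.0% after quantile normalization. Without an early array this percent can only stay or fall.

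The members' median UNM to BCP difference was −0.46 to −0.54 with 1 array left out (−0.46 without UNM replicate 2, −0.48 without BCP replicate 2). The difference of AT5G02140 was −0.20 to 0.012 with 1 array left out. Of the members, 1 (254080_at) was called lower with a floor of 40 (adjusted p = 0.030) or without a filter on dim probe sets (adjusted p = 0.039, limma). Over all probe sets, 292 were called higher and 71 lower between UNM and BCP. Without the filter 168 were higher, with a floor of 40 there were 202 lower, and leaving out 1 array gave 0 to 339 higher and 0 to 86 lower. Without any one UNM, BCP or TCP array limma called 0, while 1439 to 2238 had an unadjusted p under 0.05 (2274 in the full fit). Between TCP and MPG, 721 were higher and 1067 lower. The rises numbered 1124 with a floor of 40, and leaving out 1 array gave 0 to 366 rises and 0 to 585 falls, with 0 of each without either TCP replicate. Between BCP and TCP, 2726 were higher and 5391 lower, and 3812 and 4262 after quantile normalization. Of the other single genes tested, DIM1A lost its fall between BCP and TCP after quantile normalization (adjusted p = 0.058). Single alternatives added calls for NRPA2, NRPA1, DIM1A, CURT1A and CURT1C. The cause of these changes was not tested.

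UNM, BCP and TCP share the replicate numbers 1 and 2, which the labels do not tie to a common batch. Deviations of arrays with the same number correlated at 0.44 (UNM and BCP), 0.22 (UNM and TCP) and 0.28 (BCP and TCP). With the replicate number as a block, 396 probe sets were higher and 105 lower between UNM and BCP, and 1126 higher and 1454 lower between TCP and MPG. No member was called between UNM and BCP. The arrays also differed by replicate number in the 3′ to 5′ ratio of the GAPDH and ubiquitin controls. The ratio of the actin control differed little by replicate number in UNM and BCP.

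Fits between TCP and MPG need the MPG array and had no alternative without it. The share of promoters with a motif was not computed, since promoter sequences were not used here.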

Other observations

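Besides the members, 13 of the 791 fallen probe sets were at least 3 times higher in MPG than on the higher TCP array but stayed under an MPG signal of 60. They included AT3G15440, with 408 and 428 in UNM, 288 and 351 in BCP, 1.6 and 1.1 in TCP and 29.2 in MPG. AT1G80750 had 844 and 1091 in UNM, 564 and 771 in BCP, 7 and 9.9 in TCP and 46.9 in MPG. AT5G41970 had 369 and 426 in UNM, 289 and 303 in BCP, 3 and 7 in TCP and 38.7 in MPG. All 3 were chosen for mention after their values were seen.

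A further 7 probe sets with high early signals met the MPG limits while their TCP signal lay above the limit of the rule. In AT4G12930 the early signals were 784, 910.2, 417 and 416, the TCP signals 161 and 201 and the MPG signal 991, above all early arrays. Probe set 259757_at had 398, 455, 262 and 331 early, 100.2 and 117 in TCP and 461 in MPG, likewise above all early arrays.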
